A study of Mus musculus with 36 samples.

Results

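The comparison described here is CI-994 against vehicle in the mouse medial prefrontal cortex (PFC). Its members were chosen by their labels, as the arrays of brain region PFC with the treatment CI-994 10mg/kg or Vehicle, which gave 6 of the 36 arrays of the series, 3 for each treatment. The animals were adult male mice of strain C57BL/6J that received 10 daily intraperitoneal injections and were killed 1 h after the last one. The study itself gives the strain as C57BL/6, with The Jackson Laboratory and Taconic Farms as suppliers. It does not say which mice came from which. The CI-994 mice received 10 mg/kg in a volume of 5 mL/kg. The vehicle mice received a mixture of saline, PEG-400 and DMSO in a volume of 7.5 mL/kg, so that drug and injected volume differed together and cannot be told apart. Each array was hybridized with RNA pooled from 2 mice, so that 6 mice a treatment gave 3 pools, and p-values measure the spread between pools rather than between single animals. The same mice gave nucleus accumbens (NAc) and hippocampus (HIP) arrays, and the series also holds mice given 45 mg/kg of Cpd-60 or 25 mg/kg of SAHA, which are used below only where they bear on a CI-994 value.

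CI-994 is a benzamide that inhibits the class I histone deacetylases (HDACs). These enzymes remove acetyl groups from lysines of histone tails, and they work as the catalytic subunits of corepressor complexes such as NuRD, Sin3, CoREST and NCoR. Blocking them raises histone acetylation, and in dividing cells it is known to raise some transcripts and lower others, with the cell-cycle inhibitor gene Cdkn1a as the textbook example of a raised one. In the brain these inhibitors are studied for their effects on gene expression in neurons, on memory and on mood-related behavior.

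The arrays were Illumina MouseWG-6 BeadChips with 45281 probes, of which 20170 met the detection limit (0.2 or lower on the detection p scale) in each of the 3 pools of CI-994 or of vehicle and were tested. Before normalization the median intensities of the 6 arrays ran from 85.6 to 107.9 and their 95th percentiles from 529.6 to 697.2, and between 34.9% and 36.9% of probes had a detection p of 0.01 or lower. All values below are log2 intensities after quantile normalization, and a change is the mean of the CI-994 pools minus the mean of the vehicle pools on that scale. Pools 1 and 2 of vehicle correlated at 0.994 over the tested probes, whereas pool 3 of vehicle correlated with them at 0.987. Likewise pools 2 and 3 of CI-994 correlated at 0.995, and pool 1 of CI-994 correlated with them at 0.987 and 0.989. The correlation between vehicle pool 1 and CI-994 pool 3, 0.994, was as high as that between vehicle pools 1 and 2. Vehicle pool 3 and CI-994 pool 1 therefore stood apart from the other 2 pools of their groups. The 2 BeadChips did not hold the groups evenly, since the first held vehicle pools 1 and 2 with CI-994 pool 1 and the second held vehicle pool 3 with CI-994 pools 2 and 3. Of the 33 named genes that were called, the change within the first BeadChip lay more than 1 SD of the pools from the pooled change in 15, and within the second in 14 and with the opposite sign in 1 more. Within-chip changes are given below for some of them.

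The tissue label was checked against marker genes. Slc17a7, the vesicular glutamate transporter of cortical excitatory neurons, averaged 11.44 in the vehicle pools, and the cortical transcription factor gene Tbr1 averaged 9.24. Rgs9, a signaling regulator gene of striatal neurons, lay between 7.31 and 8.29 in the 6 PFC arrays but between 11.56 and 11.93 in the 6 NAc arrays of the same treatments. Ttr, the transthyretin gene of choroid plexus, varied between 7.43 and 9.28 among the 3 vehicle pools and between 7.70 and 8.99 among the 3 CI-994 pools, with no order between the groups.

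No probe differed between CI-994 and vehicle after Benjamini-Hochberg adjustment. The count was 0 of 20170 probes (0%) by limma, with a lowest adjusted p of 0.859. At an unadjusted p under 0.05 there were 811 probes (4.02%), of which 459 were higher and 352 lower, where 1008.5 would be counted at that threshold if no probe differed. The call used in the rest of the text is 1.2-fold or more together with a limma p below 0.05 before adjustment. The study set the same limits for its other compounds, but with ANOVA and Tukey's test, by which 44 probes passed here. The limma call is therefore not like the counts of the study. It held for 145 probes (0.719%), 74 of them higher with CI-994 (0.367%) and 71 lower (0.352%). In 113 of the 145 the 3 CI-994 pools lay on one side of all 3 vehicle pools, and in 32 the groups overlapped. Over all tested probes the CI-994 pools were all above the vehicle pools in 6.15% and all below in 5.21%. Changes were small, with a median of 0.0002 and an SD of 0.10 over all probes. Each gene called below therefore passed an unadjusted threshold only. With 3 pools against 3, an exact two-sided permutation test gives p = 0.1 for any gene whose groups do not overlap, which is the smallest p it can give, so single genes are given below with their SE from limma and no p of their own.

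**Figure D1:**
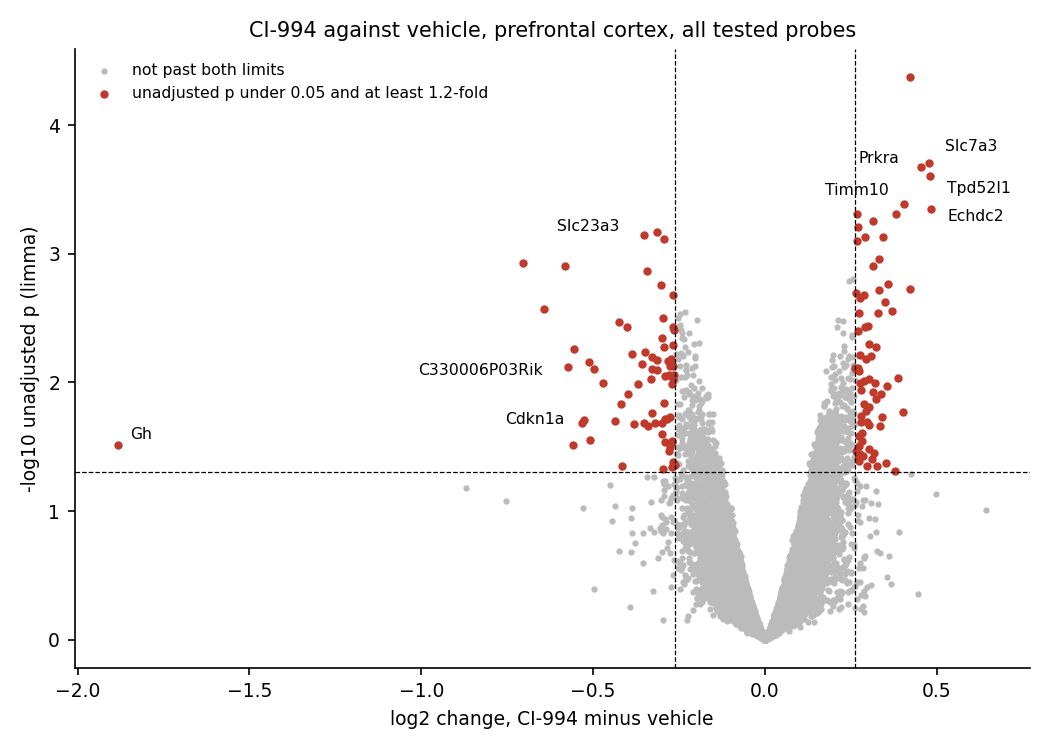
Change in log2 intensity with CI-994 (x axis) against the unadjusted limma p on a -log10 scale (y axis) for the 20170 tested probes in PFC, with the 145 called probes in red and dashed lines at the limits of the call, 1.2-fold and 0.05. The called probes reach 0.48 on the right (Echdc2 and Tpd52l1) and -0.70 on the left (a probe of Hbb-b1), with Gh alone farther out at -1.88.

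The probe with the lowest p belonged to Tpd52l1, which encodes a coiled-coil protein of the tumor protein D52 family. Its brighter probe read 7.95, 7.97 and 7.81 in the vehicle pools and 8.55, 8.49 and 8.14 in the CI-994 pools. All CI-994 pools were above all vehicle pools, and the change was 0.48 with an SE of 0.10 (1.39-fold). The other probe of the gene gave a change of 0.42 with the groups apart in the same way, and it had the lowest limma adjusted p of all probes, at 0.859. The change of the brighter probe was 0.59 within the first BeadChip and 0.50 within the second.

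Echdc2, a gene for a mitochondrial protein of the enoyl-CoA hydratase family, had the largest change among the higher genes, by a margin over Tpd52l1 that rounding hides. It read 8.77, 8.60 and 8.59 with vehicle and 9.15, 9.22 and 9.04 with CI-994. The groups were apart, with a change of 0.48 and an SE of 0.10 (1.40-fold). A second, dimmer probe gave 0.27, again with the groups apart, and the remaining probe gave 0.03 and was not called. Within the BeadChips the change of the brightest probe was 0.47 and 0.54.

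The stretches before the annotated starts of these 2 genes are shown because they head the list of higher transcripts with more than 1 probe each. They come from the RefSeq annotation of the GRCm38.p6 build, cover the 250 bases before the start, are written 5′ to 3′ on the gene's own strand, and carry in capitals the matches to the letters searched for on both strands. The GC box was searched as GGGCGG and the TATA box by its letters TATAA. The E-box was searched as CACGTG, and the cAMP response element as TGACGTCA, a palindrome like the E-box. Echdc2 lies on the plus strand of chromosome 4 (chr4:108165187-108165436) and holds an E-box 163 bases and a GC box on the opposite strand 18 bases before the start. Tpd52l1 lies on the minus strand of chromosome 10 (chr10:31445959-31446208), and its only matches are 2 overlapping ones to TATAA at the far end of the window.
Echdc2: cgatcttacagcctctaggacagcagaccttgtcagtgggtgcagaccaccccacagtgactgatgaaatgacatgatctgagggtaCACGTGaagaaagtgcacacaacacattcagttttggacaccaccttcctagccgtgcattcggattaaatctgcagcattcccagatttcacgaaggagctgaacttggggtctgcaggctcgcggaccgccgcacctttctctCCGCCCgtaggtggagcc
Tpd52l1: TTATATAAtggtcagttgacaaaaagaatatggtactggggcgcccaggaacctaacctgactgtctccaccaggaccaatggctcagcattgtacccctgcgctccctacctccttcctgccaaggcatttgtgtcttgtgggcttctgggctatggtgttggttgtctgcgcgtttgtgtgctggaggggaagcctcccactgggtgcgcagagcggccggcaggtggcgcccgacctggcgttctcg
Over all 32851 windows of this length in the table, 32.7% held a GC box, 22.8% TATAA, 6.02% the E-box and 1.55% the cAMP response element. Among the 12 named genes with the largest increases, 8 had a window in the table, and of these 4 held a GC box, 2 TATAA, 1 the E-box and 0 the cAMP response element.

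Transport and signaling genes were also among the higher ones. Slc7a3, which encodes a cationic amino acid transporter, read 8.24, 8.11 and 8.25 with vehicle and 8.84, 8.64 and 8.55 with CI-994, a change of 0.48 ± 0.09 (SE). The groups did not overlap. Prkra encodes PACT, an activator of the double-stranded RNA-dependent kinase PKR that also takes part in RNA silencing, and it read 7.50, 7.47 and 7.41 against 8.08, 7.87 and 7.79. All 3 CI-994 pools were again the higher ones, and the change was 0.45 ± 0.09. Cabp7, a calcium-binding protein of the calmodulin family, was close to background. It read 6.81, 6.84 and 6.53 against 7.02, 7.29 and 7.14, a change of 0.42 ± 0.11, and it was detected at 0.01 in 2 of 3 vehicle pools and in 3 of 3 CI-994 pools. Its change was 0.20 within the first BeadChip and 0.68 within the second.

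A pair of enzyme genes of monoamine metabolism was called higher. Qdpr encodes the reductase that regenerates tetrahydrobiopterin, the cofactor of the tyrosine and tryptophan hydroxylases. It read 9.63, 9.69 and 9.52 with vehicle and 9.74, 10.14 and 10.12 with CI-994, so that pool 1 of CI-994 lay just above the highest vehicle pool and the other 2 well above it. The change was 0.39 ± 0.13 (1.31-fold), made up of 0.08 within the first BeadChip and 0.60 within the second. Maob, the monoamine oxidase of the outer mitochondrial membrane, read 8.25, 8.24 and 7.997 against 8.55, 8.58 and 8.42, a change of 0.35 ± 0.12. Without vehicle pool 3 its change was 0.27 and it was no longer called. Maob belongs to the serotonin and dopamine list and Qdpr does not. The other 11 tested genes of that list were not called. Its 12 tested genes had a median change of 0.03, against -0.0015 over all 14571 genes with 1 probe each.

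Mitochondrial import, prostaglandin synthesis and antigen presentation were represented by 1 gene each among the 12. Timm10, a chaperone of the mitochondrial intermembrane space, had narrow groups, with 7.90, 7.84 and 7.95 in vehicle and 8.28, 8.30 and 8.33 in CI-994 (change 0.40 ± 0.09). Ptgds, the prostaglandin D2 synthase made by meninges, choroid plexus and oligodendrocytes, read 10.69, 10.90 and 10.56 against 11.06, 11.21 and 11.08. Its groups did not overlap, with a change of 0.40 ± 0.15, but the call was lost without vehicle pool 3 and without CI-994 pool 2, with a smallest change of 0.33. H2-D1, a class I major histocompatibility gene, was called by both of its probes. The brighter one read 8.74, 8.54 and 8.05 with vehicle and 8.90, 8.84 and 8.74 with CI-994, so that 1 CI-994 pool overlapped with the vehicle range, and it stayed called only in the fit without vehicle pool 1 (changes from 0.18 to 0.53 over the 6 fits that left out a pool). The other probe kept the groups apart at 0.36 ± 0.09. Transcripts without a functional name completed the 12, with changes of 0.38 ± 0.08 for 6430550H21Rik and 0.37 ± 0.10 for ENSMUSG00000068790. The latter was at 0.60 within the first BeadChip and 0.13 within the second, Ptgds at 0.27 and 0.58, and the brighter H2-D1 probe at 0.25 and 0.74.

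**Figure D2:**
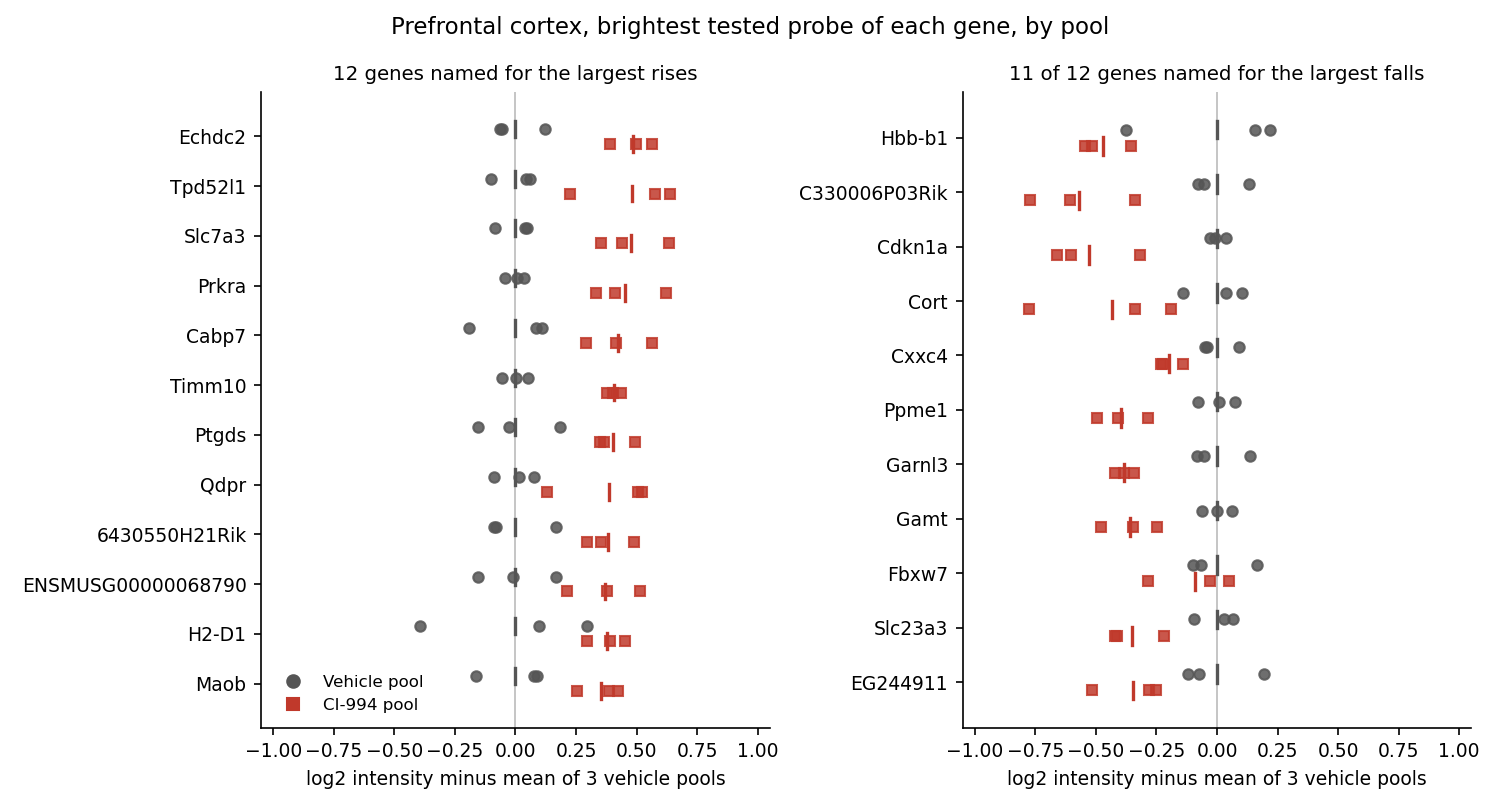
Log2 intensity of each pool minus the mean of the 3 vehicle pools (x axis) for the brightest tested probe of the genes with the largest increases (left) and decreases (right), with gray circles for vehicle pools, red squares for CI-994 pools and short lines for the group means. Every CI-994 square lies to the right of the vehicle circles for the genes on the left except H2-D1, and on the right the brightest probes of Hbb-b1 and Fbxw7 overlap between groups. Gh, at -1.88, is plotted with the hemoglobin probes.

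Cdkn1a, which encodes the cyclin-dependent kinase inhibitor p21, was lower and not higher with CI-994. Its brightest probe read 8.32, 8.27 and 8.25 with vehicle and 7.67, 7.62 and 7.96 with CI-994. The 3 vehicle pools were almost equal and all lay above the CI-994 pools, and the change was -0.53 with an SE of 0.20 (1.44-fold lower). The 2 dimmer probes gave -0.23 and -0.18 and were not called, and the groups overlapped in both. The call was lost without CI-994 pool 1 or without CI-994 pool 2, with changes from -0.63 to -0.46 over the 6 fits that left out a pool. Cdkn1c, the related inhibitor p57, was called in the other direction, with 8.28, 8.40 and 8.42 against 8.95, 8.51 and 8.53 and a change of 0.30 ± 0.13, most of it from CI-994 pool 1. It stayed called only without CI-994 pool 2 or without CI-994 pool 3, and without CI-994 pool 1 its change was 0.15. Within the first BeadChip, which holds that pool, it was 0.61, and within the second 0.10. The other 8 genes of the cell-cycle inhibitor and Gadd45 list were not called, with p27 (Cdkn1b) at -0.01 and Gadd45b at 0.12. Of all genes 0.426% were called higher and 0.357% lower.

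The window before the second annotated Cdkn1a start is shown because this gene is the usual example for the action of HDAC inhibitors through GC boxes. It lies on the plus strand of chromosome 17 (chr17:29093519-29093768, GRCm38.p6, RefSeq) and holds GC boxes beginning 104 and 46 bases and TATAA 25 bases before the start, in capitals here.
Cdkn1a: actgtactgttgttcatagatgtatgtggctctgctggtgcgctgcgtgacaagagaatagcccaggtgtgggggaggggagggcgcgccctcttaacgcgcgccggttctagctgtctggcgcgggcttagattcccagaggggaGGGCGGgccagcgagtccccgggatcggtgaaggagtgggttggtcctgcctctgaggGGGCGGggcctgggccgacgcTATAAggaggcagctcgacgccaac
Of the 12 named genes with the largest decreases, 8 had between them 12 windows, since some have several annotated starts. Of these 12 windows 7 held a GC box, 4 TATAA and 0 the E-box. A match describes the letters and was not tested for binding.

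Neuropeptide and trophic factor transcripts were among the lower genes. Cort encodes cortistatin, a peptide of a subset of cortical interneurons, and both of its probes were called. The brighter one read 8.22, 8.40 and 8.47 with vehicle and 8.03, 7.59 and 8.18 with CI-994, a change of -0.44 ± 0.16. The dimmer one read 7.62, 7.61 and 7.77 against 7.19, 7.13 and 7.41, a change of -0.42 ± 0.12. In both probes all CI-994 pools were below all vehicle pools, but the call of the brighter one was lost without CI-994 pool 2, vehicle pool 2 or vehicle pool 3, with changes down in size to -0.26. Sst, the somatostatin gene whose peptide shares receptors with cortistatin, was not called at 0.22, and of the 14 interneuron and neuropeptide genes tested Cort was the only one called. Bdnf, the brain-derived neurotrophic factor, read 8.95, 8.93 and 8.96 on its brightest probe against 8.55, 8.70 and 8.78, a change of -0.27 ± 0.08. It was no longer called without CI-994 pool 1 or without vehicle pool 3, where the smallest change was -0.20. Its other 4 tested probes, all dimmer, gave between -0.11 and -0.02 and were not called. Among the 10 neurotrophin signaling genes tested, the receptor gene Ntrk2 was at 0.03 and none but Bdnf was called. Of all genes 0.426% were called higher and 0.357% lower.

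The remaining lower genes encode enzymes and regulators of several kinds. Ppme1, the methylesterase that removes the methyl group from protein phosphatase 2A, read 11.23, 11.38 and 11.32 with vehicle and 11.03, 10.82 and 10.90 with CI-994, and it stayed called in each of the 6 fits that left out a pool. Gamt, which catalyzes the last step of creatine synthesis, read 7.61, 7.74 and 7.68 against 7.43, 7.20 and 7.33 and also stayed called in all 6. Slc23a3, a member of the ascorbate transporter family, was called under each alternative that gave a test, with 7.13, 7.29 and 7.26 against 6.81, 6.81 and 7.01. These 3 genes had changes of -0.40 ± 0.14, -0.36 ± 0.11 and -0.35 ± 0.08, and in each the groups were apart. C330006P03Rik, a transcript without a functional name, changed by -0.57 ± 0.18 (1.49-fold lower), and EG244911, a predicted gene, by -0.35 ± 0.11, which was -0.25 and no longer called without vehicle pool 3. Within the first and the second BeadChip these changes were -0.81 and -0.39 for C330006P03Rik and -0.15 and -0.59 for EG244911. Garnl3, which encodes a protein with a Rap GTPase-activating domain, changed by -0.38 ± 0.15, and its call was lost without vehicle pool 3 and without CI-994 pool 1, with a smallest change of -0.31. Cxxc4, an inhibitor of Wnt signaling, and Fbxw7, the substrate receptor of a ubiquitin ligase, were each called on 1 probe only. That probe changed by -0.40 ± 0.11 in Cxxc4 and by -0.35 ± 0.13 in Fbxw7, whereas the brightest probes gave -0.20 ± 0.10 and -0.09 ± 0.12 and were not called.

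Hemoglobin transcripts were lower with CI-994. Hbb-b1, an adult β-globin gene, had 10 tested probes, and 9 of them were lower and called, with changes down to -0.70, while 1 probe near background gave 0.01. In 5 of the 9 the groups were apart. The brightest probe read 12.91, 12.97 and 12.38 with vehicle and 12.21, 12.40 and 12.24 with CI-994, a change of -0.47 ± 0.16. The adult α-globin gene Hba-a1 read 12.68, 12.74 and 11.91 against 11.88, 12.11 and 11.81, a change of -0.51 ± 0.20. In both genes vehicle pools 1 and 2 were high and vehicle pool 3 lay near the CI-994 pools. The Hba-a1 change was -0.83 within the first BeadChip and 0.06 within the second, and that of the brightest Hbb-b1 probe was -0.73 and -0.06. Hba-a1 stayed called only without CI-994 pool 2 or without vehicle pool 3, with changes from -0.77 to -0.36 over the 6 fits that left out a pool, and that Hbb-b1 probe lost its call without vehicle pool 2. A fall was not particular to CI-994. Against the same vehicle pools Hba-a1 was at -0.46 with SAHA and -0.04 with Cpd-60. The brightest Hbb-b1 probe was at -0.39 with SAHA and -0.27 with Cpd-60. Globin genes come in near-identical copies, so the probes cannot be given to 1 copy with certainty. The window before the Hba-a1 start (chr11:32283422-32283671, plus strand, GRCm38.p6, RefSeq) is shown as that of an erythroid gene in the same comparison, with its single match, TATAA, in capitals 27 bases before the start.
Hba-a1: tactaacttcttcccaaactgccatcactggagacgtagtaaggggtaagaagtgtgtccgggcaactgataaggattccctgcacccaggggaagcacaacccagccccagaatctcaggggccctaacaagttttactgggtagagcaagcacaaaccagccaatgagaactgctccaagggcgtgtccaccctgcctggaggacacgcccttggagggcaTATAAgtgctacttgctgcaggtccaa
All 4 tested blood markers had negative changes, with a median of -0.33, and besides the globins these were Slc4a1 (-0.18), the red cell anion exchanger, and Alas2 (-0.18), the erythroid heme synthesis enzyme. With 1 probe each, the groups were apart in Slc4a1 alone, which had an unadjusted limma p under 0.05 but was short of 1.2-fold. In Alas2 they overlapped. The median of the list relative to the vehicle mean ran from -0.35 to 0.20 in the vehicle pools and from -0.39 to -0.24 in the CI-994 pools. In bulk tissue, fewer cells of a type and less RNA in each cell cannot be told apart, here and for every cell type marker below.

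Growth hormone, Gh, gave the largest change of all probes. It read 9.85, 7.43 and 7.97 in the vehicle pools and 6.48, 6.67 and 6.47 in the CI-994 pools, where it was not well above background in any pool. Raised to the lowest signal detected at 0.01 on each array, the CI-994 mean was 3.20-fold below the vehicle mean. That vehicle mean rests largely on pool 1, so the value is no lower limit over the pools. The fitted change was -1.88 ± 0.78, and the probe stayed called only without vehicle pool 2 or without vehicle pool 3, with -1.17 without vehicle pool 1. Prl, another hormone gene of the anterior pituitary, had the same order among the vehicle pools, with 8.33, 6.75 and 7.13 against 6.56, 6.60 and 6.45. The other 5 pituitary hormone genes looked at, Pomc, Cga, Tshb, Lhb and Fshb, read between 6.35 and 6.79 in these 6 pools and did not meet the detection limit in every pool of either group. In the Cpd-60 pools Gh read 10.39, 7.41 and 6.54, with Prl at 8.41 and Cga at 7.01 in the first. The SAHA pools read 6.49, 6.91 and 6.50 for Gh, which was detected at 0.01 in pool 2 alone. Pituitary genes were looked at after the values of Gh had been seen, and their part in the result was not tested.

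**Figure D3:**
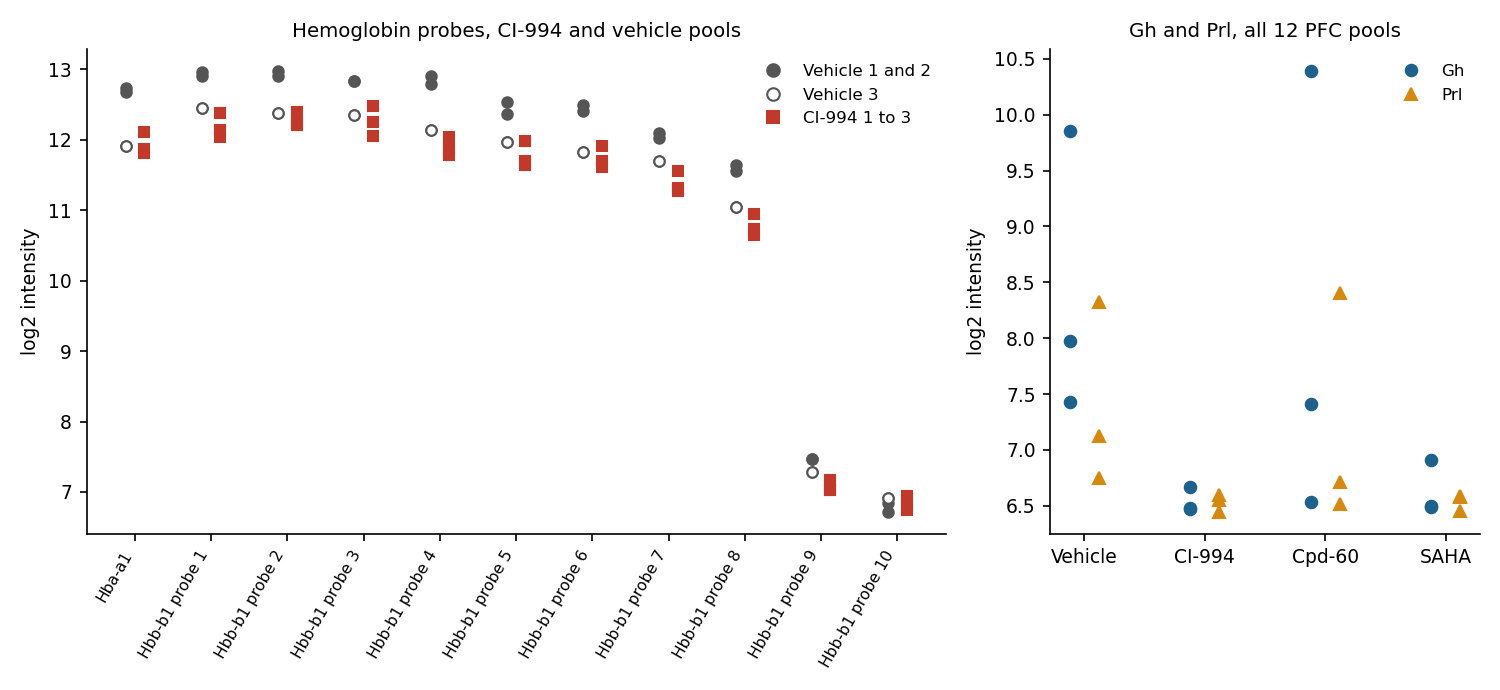
Log2 intensity (y axes) of Hba-a1 and the 10 tested Hbb-b1 probes in the 3 vehicle and 3 CI-994 pools (left) and of Gh and Prl in all 12 PFC pools by treatment (right). Vehicle pool 3, drawn open, sits near the CI-994 pools for the bright globin probes. The highest Gh and Prl values are those of 1 vehicle pool and 1 Cpd-60 pool. Gh was also above background in the other 2 vehicle pools, a second Cpd-60 pool and SAHA pool 2.

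The HDACs and their complexes were not called in either direction. Of the 26 tested genes of class I HDACs and corepressors 0 were called, against 0.426% of all genes called higher and 0.357% called lower with 1 probe each, and their median change was -0.0078. Hdac2 was at 0.10 ± 0.23 and Hdac3 at -0.02 ± 0.11. The extremes were Mta3, a subunit of NuRD, at 0.18 and Tbl1x, a subunit of the NCoR complex, at -0.27, where CI-994 pool 1 read 7.59 and the other 5 pools between 8.09 and 8.39. Hdac1 was not analysed here. Among the class II and class IV HDACs and the Mef2 factors 0 of 9 were called, with Hdac10 highest at 0.12 and Mef2d, which was detected at 0.01 in 0 pools, lowest at -0.17, and among acetyltransferases and acetyl-lysine readers 0 of 19 were called, with Myst1 highest at 0.18 and Brd7 lowest at -0.11. Histone genes had a median of 0.10 and 0 calls, with 15 of 18 changes positive, where 49.4% of all genes were positive. Relative to the vehicle mean, the histone list median ran from -0.09 to 0.08 in the vehicle pools. In the CI-994 pools it ran from 0.07 to 0.09, so that the groups overlapped. H2afz, a histone variant gene, was at 0.16 with the groups apart, and the linker histone gene H1fx was highest at 0.32 but overlapped between groups, with vehicle pool 3 at 7.48 and the other vehicle pools at 7.93 and 7.89.

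Activity-regulated and hormone-regulated genes were mostly not called, where 0.426% of all genes were called higher and 0.357% lower. Arc, an immediate early gene of synaptic plasticity, had the largest positive change of any listed gene at 0.64, but it read 9.57, 9.33 and 8.42 with vehicle and 9.65, 10.42 and 9.19 with CI-994. The groups overlapped, and the SE was 0.36. Fos was at -0.01, Egr1 at -0.17 and Npas4 at 0.07, and 0 of the 17 tested immediate early genes were called, with Fosl2 lowest at -0.24. Of 26 glucocorticoid-induced genes only Cdkn1a was called, while Sgk1 and Tsc22d3, the latter encoding the leucine zipper protein GILZ, were at -0.04 ± 0.18 and -0.01 ± 0.12. In the circadian clock list, Per2 was the only called gene of 16. Its brightest probe read 9.41, 9.39 and 9.27 with vehicle and 9.15, 9.01 and 9.03 with CI-994, a change of -0.29 ± 0.10 that stayed called in each of the 6 fits leaving out a pool. A second Per2 probe of similar brightness gave -0.02 and overlapped, so the probes of the gene disagreed. Per1 was at 0.21, Arntl at 0.04 and Dbp at -0.01. The 3 metallothionein genes were not called either, with Mt2 at 0.01, Mt1 at 0.10 and Mt3 at 0.26, where vehicle pool 3 alone was low at 11.16 and the other 5 pools lay between 11.84 and 12.20.

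Glial and vascular markers gave single calls in mixed directions, where 0.426% of all genes were called higher and 0.357% lower. Aldh1l1, the folate enzyme used as a pan-astrocyte marker, was lower, with 8.02, 8.15 and 7.97 against 7.66, 7.84 and 7.74 and a change of -0.30 ± 0.09. Its call was lost without CI-994 pool 1 or without vehicle pool 2, where the smallest change was -0.25, and the change was -0.43 within the first BeadChip and -0.18 within the second. Aldh1l1 went against most of its list, since 8 of the 12 tested astrocyte markers had positive and 4 negative changes, with a median of 0.04. The other 11 tested astrocyte markers were not called, and neither were the 9 reactive astrocyte genes. Gfap, the astrocyte intermediate filament, was highest at 0.39 and had its lowest value, 8.69, in vehicle pool 3, and Slc1a2 and Slc1a3, the astrocyte glutamate transporters, were at 0.05 and -0.09. Cnp, the myelin phosphodiesterase, was higher on its brighter probe, with 8.97, 8.58 and 8.71 against 9.07, 9.10 and 9.04 (change 0.32 ± 0.14), but its other probe gave 0.01 and it stayed called only without vehicle pool 1, with 0.23 as the smallest change. The remaining 12 oligodendrocyte markers were not called, with Mbp at 0.11 and Mag lowest at -0.15. Among microglia markers 0 of 10 were called, between Cx3cr1 at -0.13 and C1qc at 0.13. Endothelial and mural markers had 9 of 12 negative changes, a median of -0.06 and 0 calls, where 49.4% of all genes were positive. Ly6c1 was lowest at -0.24 with the groups apart, whereas Cldn5 was at 0.01 and Pecam1 at -0.04.

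Markers of tissues bordering the dissection were examined beside Ptgds. Of 10 meningeal fibroblast markers Ptgds was the only one called, 5 were positive and 5 negative, and the median was 0.03, with Dcn at 0.10 and Col1a1 lowest at -0.19. The list median relative to vehicle ran from -0.03 to 0.04 in the vehicle pools and from -0.06 to 0.15 in the CI-994 pools. Of 7 choroid plexus markers 0 were called, and Ttr was highest at 0.29 ± 0.55. The oligodendrocyte list median ran from -0.10 to 0.08 in the vehicle pools and from -0.08 to 0.18 in the CI-994 pools. The part of these cell types in the Ptgds value was not tested. Hippocampal, striatal, septal, hypothalamic and olfactory neuron markers held 0 called genes. In short lists such counts are near the share over all genes, 0.426% called higher and 0.357% lower.

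Neuronal identity, receptor and channel lists held few or no calls, where 0.426% of all genes were called higher and 0.357% lower. In lists of this size 0 calls are near that background. Of all genes 49.4% had a positive change. Cortical glutamatergic markers had 0 of 14 called, between Bcl11b at -0.18 and Nrgn at 0.15. Nrgn again had its lowest value in vehicle pool 3 (11.17, against 11.41 to 11.98 in the other 5 pools). Genes for GABA synthesis and receptors had 0 of 16 called, with Slc32a1, the vesicular GABA transporter, lowest at -0.15. Glutamate receptor and scaffold genes had 0 of 27 called and 19 negative, between Grm5 at -0.19 and Camk2a at 0.22. Synaptic vesicle genes had 17 of 25 negative, a median of -0.07 and 0 called. Vamp2, the vesicle SNARE, was lowest at -0.42 but overlapped between groups, with 10.99, 11.25 and 11.84 against 11.60, 10.47 and 10.74.

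Potassium channel genes had 8 of 34 positive changes and a median of -0.10, where 49.4% of all genes were positive with a median of -0.0015, and 0 were called. Kcna6, a Shaker-type channel, was lowest at -0.30 ± 0.14 with 10.73, 10.74 and 10.82 against 10.53, 10.27 and 10.59. Kcnab1, an auxiliary β subunit, was at -0.26 and Kcns2, a silent subunit, at -0.19, both with the groups apart and both with an unadjusted p under 0.05 but short of 1.2-fold. The median of the list relative to the vehicle mean ran from -0.01 to 0.02 in the vehicle pools and from -0.10 to -0.03 in the CI-994 pools, and without CI-994 pool 1 it was -0.06. It was -0.14 after neqc background correction, -0.07 within the first BeadChip and -0.06 within the second, so that its size depended on the setting and its sign did not.

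Cytosolic ribosomal protein genes had 48 of 56 positive changes and a median of 0.09, against -0.0015 over all genes. Calls were made for 4 of the 56, all higher, against 0.426% of all genes called higher. In 10 of the 56 all CI-994 pools were above all vehicle pools, where 5.94% of all genes were so placed, and in 0 were they all below, where 5.61% were. Rps10 read 11.21, 10.94 and 11.07 with vehicle and 11.34, 11.39 and 11.31 with CI-994, a change of 0.27 ± 0.07. The other 3 called genes were Rpl39 at 0.29, Rpl26 at 0.28 and Rps26 at 0.27, and all 4 lost their calls after median centring of the arrays without quantile normalization, and in 2 or 3 of the 6 fits that left out a pool. With the BeadChip as a block Rpl26, Rpl39 and Rps26 lost their calls too, and so did Gh, Hba-a1 and Cnp outside the list. The 4 genes encode proteins of the large (Rpl) and small (Rps) ribosomal subunits, and many ribosomal protein genes have processed pseudogenes that a probe may also match. The median of the list relative to vehicle ran from -0.01 to 0.03 in the vehicle pools and from 0.08 to 0.11 in the CI-994 pools, so that the groups did not overlap. That was not particular to this list. The medians of the sex-linked genes were apart too, from -0.03 to 0.01 with vehicle and from 0.03 to 0.05 with CI-994. So were those of the endothelial and mural markers, from -0.04 to 0.05 and from -0.13 to -0.09. The ribosomal median was 0.07 within the first BeadChip and 0.12 within the second, and between 0.07 and 0.12 in every fit that changed the scaling, the filter, the block or the pools. Subunits of oxidative phosphorylation had 34 of 57 positive changes, a median of 0.03 and 0 called, between Ndufv1 at -0.16 and Ndufa2 at 0.18.

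Among heat shock and chaperone genes 1 of 34 was called, Hspa2, a member of the Hsp70 family. It read 9.82, 9.91 and 9.89 with vehicle and 10.34, 10.15 and 9.94 with CI-994, a change of 0.27 ± 0.09, and its second probe was called too at 0.32 ± 0.11, though with a slight overlap. The first probe lost its call without CI-994 pool 1, where it was at 0.17, and without vehicle pool 1, and it was at 0.48 within the first BeadChip and 0.15 within the second. Hsp105, a large chaperone of the Hsp110 family, was lowest at -0.24. Of 21 genes of cholesterol synthesis and uptake 0 were called, with Dhcr7, the last enzyme of the pathway, highest at 0.21 and Hsd17b7 lowest at -0.17. Over all genes 0.426% were called higher and 0.357% lower, and in lists of 34 and 21 genes counts of 1 and 0 are near that background.

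**Figure D4:**
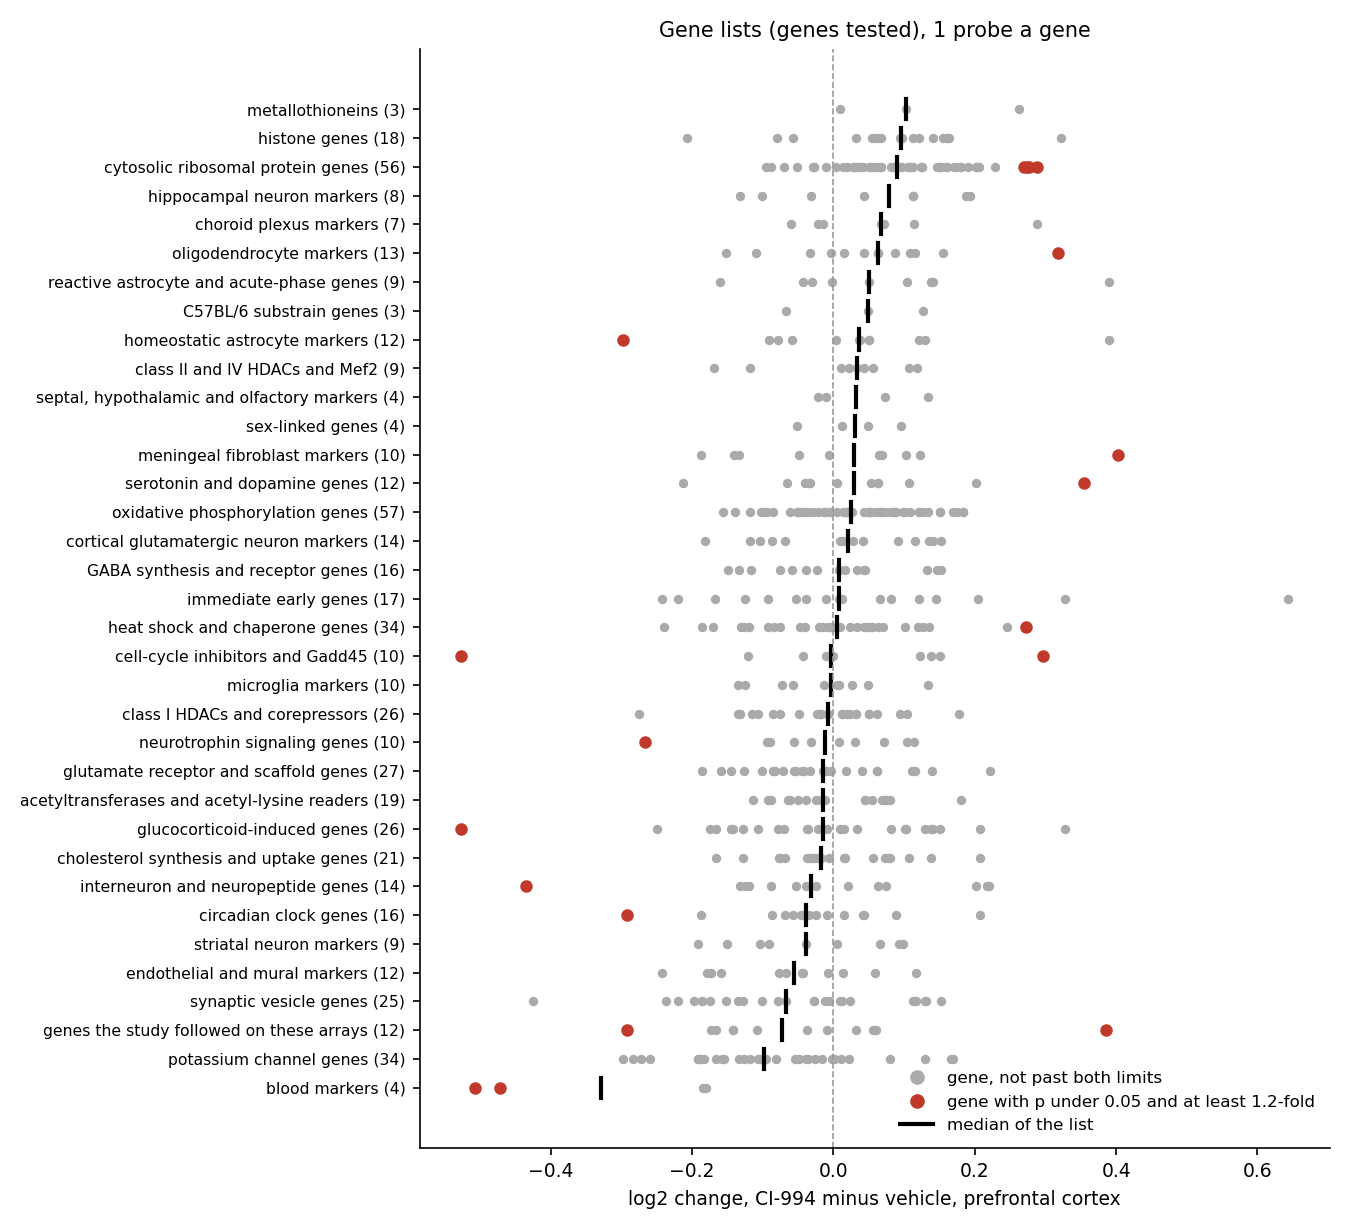
Change in log2 intensity with CI-994 in PFC (x axis) for the tested genes of each list (rows, with the number tested), with called genes in red and the list median as a black bar. Most medians lie within 0.1 of zero, the blood list lies at -0.33, and the ribosomal protein list lies at 0.09 with 4 called genes.

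The study followed 12 genes on these arrays for its other compounds, and 2 of them were called for CI-994 in PFC, Qdpr and Per2. That list was chosen by the study on arrays of this series, so it is no independent evidence of a direction. The median of the 12 was -0.07. Sgk1, Tsc22d3, Cacng5, Igfbp5 and Mef2c were between -0.04 and 0.06, and Agxt2l1, Sult1a1, Mfsd2, Rock2 and Usp54 were between -0.17 and -0.11.

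The contrasts of Cpd-60 and SAHA with vehicle use the same 3 vehicle pools as CI-994, and the compounds were given at different doses, so their values are set side by side without a comparison. For Tpd52l1 the changes in PFC were 0.48 with CI-994, 0.28 with Cpd-60 and -0.13 with SAHA. For Echdc2 they were 0.48, -0.11 and 0.08. The contrast with CI-994 is the one that chose both genes. For Sgk1 the changes were -0.04, 0.60 and 0.07, and for Tsc22d3 -0.01, 0.55 and 0.13. Bdnf was at -0.27, -0.56 and -0.08, and Per2 at -0.29, -0.39 and -0.15. Cdkn1a was at -0.53 with CI-994, 0.22 with Cpd-60 and -0.19 with SAHA. Each set of 3 values rests on the same vehicle pools.

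The last question was whether the CI-994 changes in PFC differed from those in the other 2 regions of the same mice. The difference between the PFC change and the mean of the NAc and HIP changes was tested for every probe. After adjustment 0 of 20170 probes differed (0%, lowest adjusted p = 0.9999), 418 had an unadjusted p under 0.05 (2.07%), and 73 had in addition a difference of at least 1.2-fold (0.362%). Since pools of the same mice were used in all regions, NAc and HIP are not further animals but further tissue of the same ones.

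Of the higher genes of PFC, Tpd52l1 was called in HIP and NAc too. It changed by 0.48 in PFC, 0.30 in NAc and 0.41 in HIP, and all 3 CI-994 pools were above all vehicle pools in each region. The difference between PFC and the other regions was 0.13 ± 0.13. Echdc2 was at 0.25 in NAc, short of the call, and at 0.55 in HIP, with a difference of 0.08 ± 0.14. Slc7a3 was called in HIP at 0.42 but was at 0.12 in NAc, and ENSMUSG00000068790 was called in HIP at 0.47 but not in NAc at 0.40 ± 0.21. The brighter H2-D1 probe was called in HIP at 0.35 but not in NAc at 0.30 ± 0.17. Cort was at -0.44 in PFC, -0.37 in HIP, where it was called, and -0.23 in NAc, where it was short of 1.2-fold. Cdkn1a was at -0.30 ± 0.35 in NAc and -0.16 ± 0.37 in HIP and was called in neither. Hba-a1 was at -0.89 in NAc and -0.78 in HIP, and the brightest Hbb-b1 probe at -0.76 and -0.83.

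A few genes gave different values in PFC. Cnp was at 0.32 in PFC against -0.27 in NAc and -0.22 in HIP, a difference of 0.57 ± 0.19. This is its brighter probe, and the other gave 0.01 in PFC. Against the same PFC vehicle pools Cnp was at 0.31 with Cpd-60 and 0.18 with SAHA, and Cdkn1c at 0.35 and -0.12. Ptgds was at 0.40 against -0.11 and -0.25, the largest of the named differences at 0.58 ± 0.27, Cdkn1c at 0.30 against -0.13 and -0.14, and Car2, a carbonic anhydrase, at 0.26 against -0.24 and -0.08. The transcript 1110036O03Rik had the smallest SE relative to its difference of the genes named in this direction, with a difference of 0.46 ± 0.11. It was close to background in PFC, detected at 0.01 in 2 of 3 vehicle pools and in 3 of 3 CI-994 pools. On the other side, Slc8a1, the sodium-calcium exchanger, was at -0.29 in PFC and at 0.01 and 0.04 in NAc and HIP, a difference of -0.32 ± 0.14. Reep1, a protein shaping the endoplasmic reticulum, was at -0.29 against -0.002 and 0.12, and it read 10.04, 10.26 and 10.28 against 9.94, 9.91 and 9.84 in PFC. Cgef2-pending, an exchange factor for Rap, was at -0.24 against 0.13 and 0.07, and the transcript 1700007G11Rik at -0.23 against 0.13 and 0.06. The latter was close to background in PFC, detected at 0.01 in 3 of 3 vehicle pools and in 0 of 3 CI-994 pools. None of the region differences passed adjustment over the 20170 probes.

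**Figure D5:**
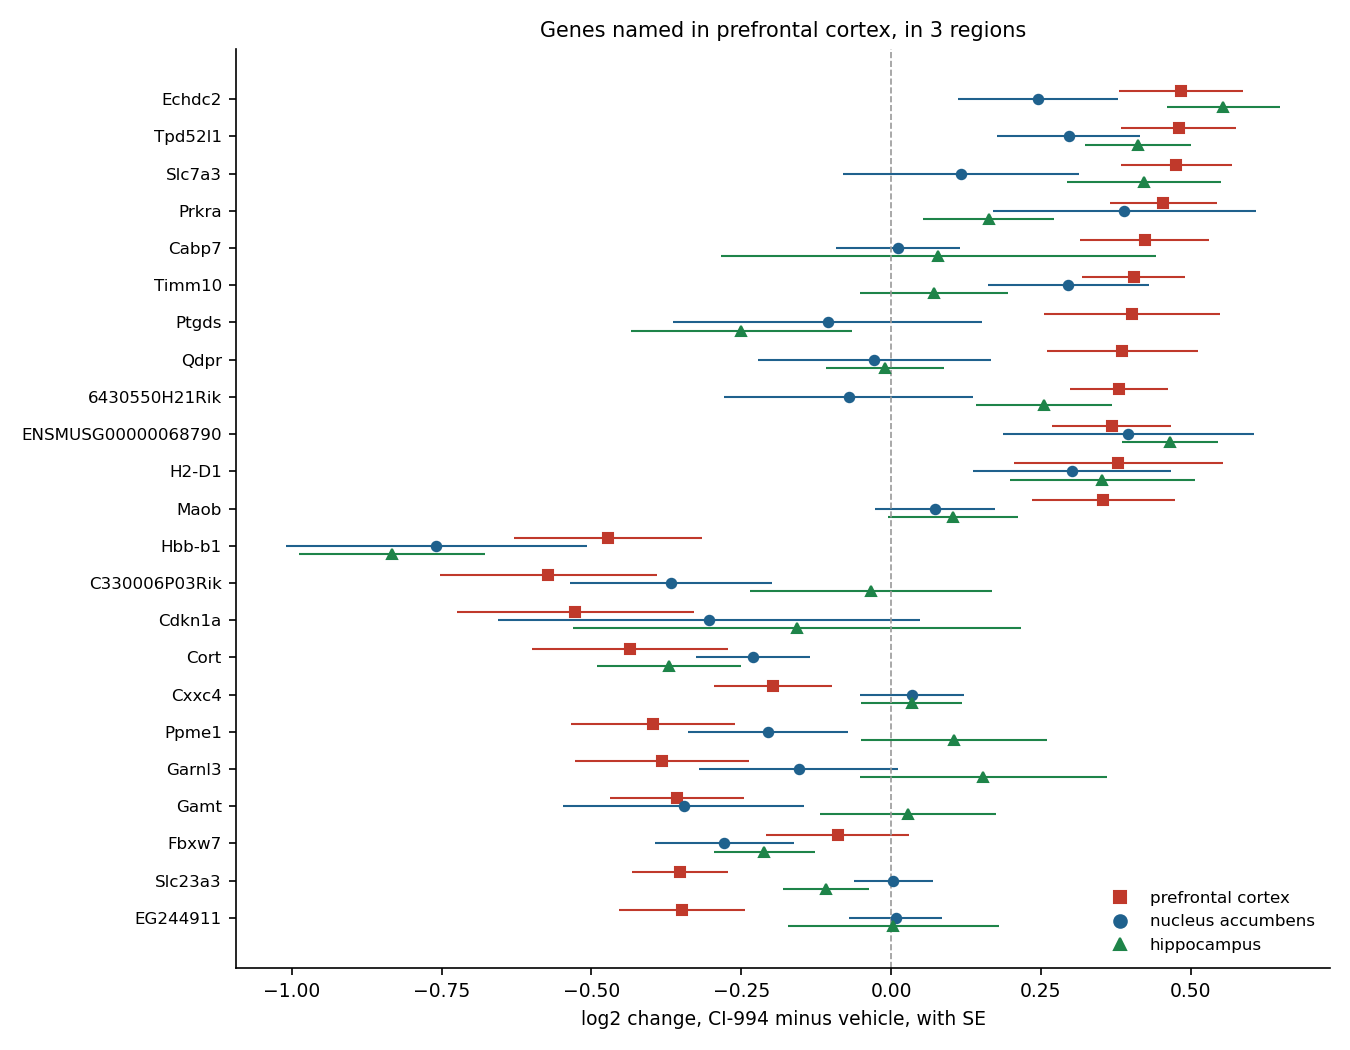
Change in log2 intensity with CI-994 (x axis, with SE) in PFC (red squares), NAc (blue circles) and HIP (green triangles) for the brightest probes of the genes with the largest increases and decreases in PFC, Gh left out. Echdc2, Tpd52l1, Slc7a3, Prkra, Cabp7, Timm10, ENSMUSG00000068790, H2-D1 and Maob lie to the right of zero in all 3 regions. Hbb-b1, C330006P03Rik, Cdkn1a, Cort and Fbxw7 lie to the left in all 3, whereas Ptgds and Qdpr lie to the right in PFC alone.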

How the data were processed

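The deposited table holds, per probe and array, raw bead intensity values and detection p-values, which the authors exported without normalization. All 36 arrays were quantile normalized, floored at 1 and log2 transformed. Probes with a detection p-value of at most 0.2 in 3 of 3 pools of CI-994 or vehicle were tested with limma 3.58.1 (R 4.3.3) on the 12 PFC arrays (4 treatments, no covariate), with Benjamini-Hochberg adjustment. The region difference used all 36 arrays with the pool as random block (consensus correlation -0.0047, reused in its alternatives). Code was tested on simulated data. Of 14571 tested symbols 12108 matched RefSeq symbols or synonyms. A gene is given by its tested probe with the highest mean signal. Named were the 12 largest called increases and decreases with the groups apart, genes followed by the study, called and extreme members of gene lists, and 5 region differences a direction. Some other list members, and Prl, were chosen after their values were seen. Members and lists were chosen with earlier results of these data known. Alternatives covered background correction, scaling, detection filter, blocks, the 6 arrays alone, the methods' ANOVA with Tukey's test and each pool left out. Figures were drawn with matplotlib 3.10.9. The number of arrays limits the precision.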

Additional observations from a re-analysis of the deposited data

Results flagged for a closer look

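For 4 of the genes named for the largest changes in PFC, the CI-994 change differed between PFC and the mean of NAc and HIP by at least 1.2-fold and at p under 0.05 before adjustment, by the limma test of that difference. Cxxc4 passed the same p with a smaller difference of -0.23. Ptgds differed by 0.58 ± 0.27 (SE), with a change of 0.40 in PFC, -0.11 in NAc and -0.25 in HIP. Qdpr differed by 0.41 ± 0.19, with 0.39, -0.03 and -0.01. Slc23a3 differed by -0.30 ± 0.08, with -0.35, 0.00 and -0.11, and EG244911 by -0.35 ± 0.17, with -0.35, 0.01 and 0.00. All 4 genes were chosen for their change in PFC, which favors a difference in that direction, and none passed adjustment over the 20170 probes.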

How the results depend on the processing

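With any alternative, 0 probes passed adjustment by limma, although the lowest adjusted p was 0.0666 without CI-994 pool 3 and 0.124 without vehicle pool 3. By the methods' ANOVA and Tukey's test 0 passed as well, with a lowest adjusted p of 0.0515. The 145 called probes became 895 after neqc background correction, 57 after median centring without quantile normalization and 44 by the methods' ANOVA and Tukey's test, 138 to 336 when 1 pool was left out, and 386 without CI-994 pool 1 and vehicle pool 3 together. The 811 probes at an unadjusted p under 0.05 became 283 after median centring, 529 with a detection p of at most 0.01, 1743 with no detection filter, 263 by Tukey's test, and 566 to 1062 with 1 pool left out. For the region difference, the 73 probes became 490 (neqc), 25 (median centring), 111 (BeadChip block) and 69 to 133 (1 pool left out), and the 418 became 165 (median centring), 161 (detection p of at most 0.01), 1474 (no filter) and 365 to 464. Of the named increases and decreases 22 were called on their brightest probe, 14 after median centring, 9 by Tukey's test and 16 to 21 with 1 pool left out. Of the genes in the lists 17 were called, 31 with neqc, 6 after median centring, 3 by Tukey's test and 10 to 28 with 1 pool left out. Of the 33 genes called in either way, 8 stayed called under all 15 alternatives that gave a test, namely Echdc2, Tpd52l1, Slc7a3, Prkra, Cabp7, 6430550H21Rik, ENSMUSG00000068790 and Slc23a3. Within the second BeadChip Hba-a1 turned to 0.056. Pool numbers did not pair the arrays, since deviations of the same-numbered CI-994 and vehicle pools correlated at -0.30, 0.02 and 0.04. With the pool number as a replicate block 156 probes were called, 823 had p under 0.05, and the region difference gave 78 and 427. The causes of these shifts were not tested.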
